A study of Mus musculus with 24 samples.

Results

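Collagen folding and cross-linking enzymes were followed through back skin wounds of diabetic mice as 10 genes among the 54232 genes of the count tables. They were taken by gene symbol, with earlier results of these data known. They are Serpinh1, P4ha3, Plod1, Plod2, Plod3, Lox, Loxl1, Loxl2, Loxl3 and Loxl4. All 10 passed the filter on low counts and were among the 18978 genes tested. The wounds came from male mice of the C57BLKS/J strain carrying Lepr (db/db), a leptin receptor mutation in every cell that makes the animals obese and diabetic. Each wound was a punch of 6 mm through the full skin of the back, made at 16 weeks of age, and wound tissue was collected 10 days later from mice listed as 17.5 weeks old. An alginate bandage was laid on at once and renewed on day 3. It carried medium conditioned by primary macrophages of the M0 kind (CM0, n = 4), the M1 kind (CM1, n = 4), the M2a kind (CMA, n = 5) or the M2c kind (CMC, n = 5), or was a control bandage (Ctrl, n = 6). Macrophages are called M0 before polarisation and M1 in their inflammatory state, while M2a and M2c name states associated with tissue repair and with the resolution of inflammation. All 5 groups were wounded and diabetic, so unwounded skin and non-diabetic wounds are outside these comparisons. Each of the 24 libraries was made from the RNA of a whole wound sample and held between 7267879 and 11985292 counts. The labels do not tie each sample to an animal of its own, so the p-values measure only the spread between these samples, which may be technical.

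Fibrillar collagen is made in the endoplasmic reticulum, mainly of fibroblasts in a skin wound. There prolyl hydroxylases and lysyl hydroxylases modify the chains before they fold, and the chaperone HSP47, encoded by Serpinh1, binds the folded triple helix and escorts it onward. Outside the cell the copper-dependent lysyl oxidases turn lysines and hydroxylysines into aldehydes, which link neighbouring collagen molecules, and elastin molecules, to each other. These cross-links give scar tissue its stiffness and resistance to digestion, and they form over the days in which granulation tissue matures.

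The chaperone Serpinh1 (ENSMUSG00000070436) lies on chromosome 7 from 99345376 to 99353239. P4ha3 (ENSMUSG00000051048), a catalytic subunit of prolyl 4-hydroxylase, lies on the same chromosome from 100285520 to 100319699. Of the lysyl hydroxylases, Plod1 (ENSMUSG00000019055) lies on chromosome 4 from 147909753 to 147936767, Plod2 (ENSMUSG00000032374) on chromosome 9 from 92542223 to 92608428, and Plod3 (ENSMUSG00000004846) on chromosome 5 from 136987019 to 136996648. Of the lysyl oxidases, Loxl1 (ENSMUSG00000032334) lies on chromosome 9 from 58287738 to 58313186, and Loxl2 (ENSMUSG00000034205) on chromosome 14 from 69609068 to 69695834. Lox itself is ENSMUSG00000024529. Loxl3 (ENSMUSG00000000693) lies on chromosome 6 from 83034173 to 83052562 and Loxl4 (ENSMUSG00000025185) on chromosome 19 from 42593982 to 42612813. All positions are those of GENCODE M21 on GRCm38. The libraries do not mark the strand, so reads of overlapping genes on opposite strands cannot be told apart. Exons of Plod3 share 529 bases with Znhit1, which had 2828 counts over all libraries against 16334 for Plod3. Exons of Loxl3 share 535 bases with Htra2, which had 5050 counts against 10119 for Loxl3. The values of Plod3 and Loxl3 are uncertain to that extent. Plod2 and Loxl2 overlap genes with 252 and 7 counts.

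Start regions are shown for 4 members whose levels are compared below: Serpinh1, the most abundant member, Plod1 and Plod3, a pair of hydroxylases whose levels ran closely together across wounds, and Loxl4, the member whose level did not run with the rest. Each is the 250 bases before the start of the gene in RefSeq on GRCm38.p6, written 5′ to 3′ on the gene's own strand. Regions of 5 of the 10 members were taken from the table of start regions. Capitals mark matches, on either strand, to the letters ACGTG (a core of hypoxia response elements), GAANNTTC (part of a heat shock element), GGGCGG (the GC box), CCAAT and TATAAA.
Serpinh1, chr7:99353240-99353489, minus strand: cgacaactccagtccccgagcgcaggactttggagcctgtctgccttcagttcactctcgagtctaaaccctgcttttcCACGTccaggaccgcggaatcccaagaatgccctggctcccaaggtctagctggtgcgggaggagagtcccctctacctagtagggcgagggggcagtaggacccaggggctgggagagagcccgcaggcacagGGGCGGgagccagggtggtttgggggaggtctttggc
Plod1, chr4:147936777-147937026, minus strand: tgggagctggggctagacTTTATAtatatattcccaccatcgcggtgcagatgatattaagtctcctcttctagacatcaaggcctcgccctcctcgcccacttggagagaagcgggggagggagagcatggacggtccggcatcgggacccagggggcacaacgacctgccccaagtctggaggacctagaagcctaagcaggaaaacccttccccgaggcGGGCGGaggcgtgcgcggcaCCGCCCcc
Plod3, chr5:136986769-136987018, plus strand: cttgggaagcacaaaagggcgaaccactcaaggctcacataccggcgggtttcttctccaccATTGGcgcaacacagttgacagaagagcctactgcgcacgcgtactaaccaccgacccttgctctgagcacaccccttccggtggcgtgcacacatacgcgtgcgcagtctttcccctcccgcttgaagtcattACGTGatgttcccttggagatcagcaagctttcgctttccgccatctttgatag
Loxl4, chr19:42612807-42613056, minus strand: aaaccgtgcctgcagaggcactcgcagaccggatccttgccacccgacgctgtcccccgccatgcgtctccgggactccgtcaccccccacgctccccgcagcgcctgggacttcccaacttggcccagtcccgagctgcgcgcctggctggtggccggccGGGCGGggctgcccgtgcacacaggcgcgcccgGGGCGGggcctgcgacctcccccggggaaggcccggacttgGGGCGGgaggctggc
The letters ACGTG stood in the windows of Serpinh1 (171 to 167 bases before the start, on the other strand) and Plod3 (54 to 50 bases before it), and in 16.6% of the 32851 windows of this length in the table. The GC box stood in those of Serpinh1, Plod1 and Loxl4, with 3 matches in Loxl4 and 2 in Plod1, and in 32.7% of all windows. Plod1 held TATAAA on the other strand 232 to 227 bases before the start, as did 12.4% of all windows in some position, and Plod3 held CCAAT on the other strand, as did 33.8%. GAANNTTC, in 6.69% of all windows, was not among the letters of these 4. No match overlapped another in the 4 windows shown. The G and C share was 63.6% in Serpinh1, 61.6% in Plod1, 55.6% in Plod3 and 76.0% in Loxl4, beside a median of 52.4% over all windows. Plod1 and Plod3, the pair that ran together, shared none of the 5 motifs in these windows.

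Levels can be set side by side between genes as RPKM, reads per kilobase of exon, scaled to library size. The length used is that of all annotated exons of a gene merged, so the order of genes also depends on the annotation. Serpinh1 stood far above the other members at 385 ± 64.6 RPKM (SD, n = 24). Lox, the founding lysyl oxidase, followed at 116 ± 18.8, Loxl1, known in mice for elastic fibre renewal, at 83.4 ± 18.4, and Loxl2 at 57.2 ± 20.4 RPKM. The hydroxylases came next, with Plod1 at 23.9 ± 3.77 and Plod3 at 15.9 ± 2.07 RPKM. Loxl3 stood at 9.68 ± 2.18, P4ha3 at 7.32 ± 2.15, Plod2 at 7.01 ± 3.67 and Loxl4 at 5.05 ± 0.934 RPKM. The substrate transcript Col1a1, the main chain of type I collagen, had a mean of 4203 RPKM. The order was nearly the same in every wound: each of Serpinh1, Loxl1, Loxl2, Plod1 and Plod3 exceeded the next member in 24 of 24 libraries, and Lox exceeded Loxl1 in 23 and Loxl3 exceeded P4ha3 in 23. At the low end neighbours did not differ beyond their spread: P4ha3 was above Plod2 in 18 libraries and Plod2 above Loxl4 in 16.

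**Figure D1:**
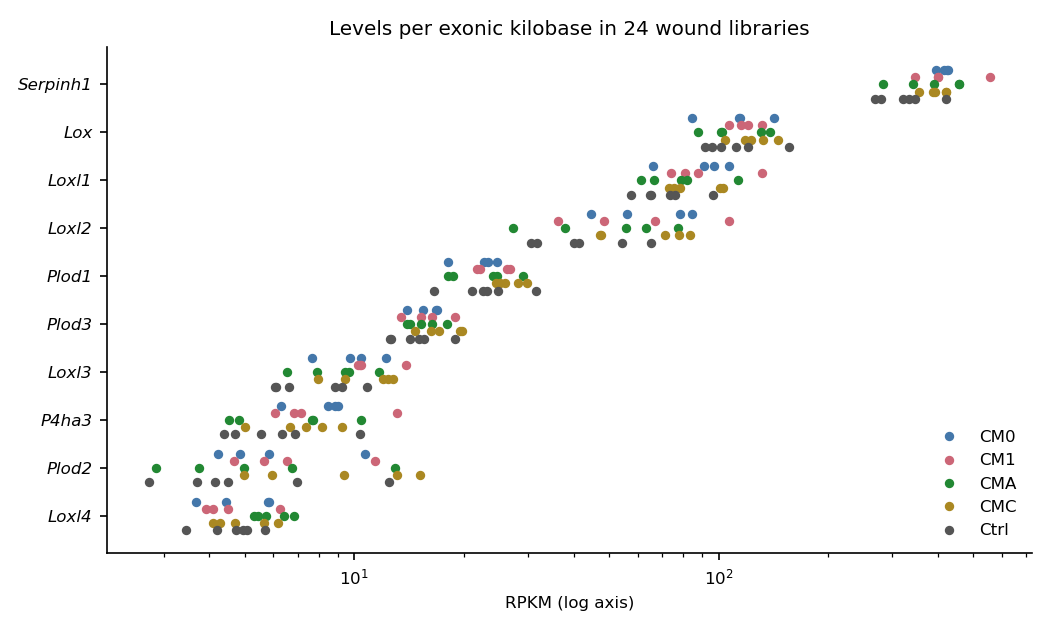
RPKM of each member in every library on a log axis, 1 point per library and coloured by group, with members in order of their mean. Serpinh1, with a mean of 385 RPKM, lies apart from all others in every library, and P4ha3, Plod2 and Loxl4 overlap at the low end with means of 7.32, 7.01 and 5.05 RPKM.

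Members differed in how far they varied between wounds. Plod2, which hydroxylates the telopeptide lysines that shape the cross-links of stiff scars, spanned 5.55-fold between its lowest and highest library, and its coefficient of variation of 52.3% exceeded that of 98.3% of the 10298 protein-coding genes of at least 10 CPM (counts scaled to a common library size). Loxl2 spanned 3.91-fold (coefficient of variation 35.7%) and P4ha3 2.98-fold (29.4%). Plod3, which also transfers sugars to hydroxylysine, was the steadiest member with a span of 1.57-fold and 13%, near the median of those genes at 1.59-fold and 11.7%. Single wounds were high or low for many members at once. The library CM1 4 had the highest value of all 24 libraries for 5 members and the highest of its group for 8 of 10. The library Ctrl 3 had the lowest value of all for 5 members, and Ctrl 6 had the highest control value for 8. The shares of all genes at their extreme in these libraries were not taken, so the counts have no background beside them. Ctrl 3, CM1 4 and Ctrl 6 may be extreme for other genes as well. Ctrl 3 also held the most hair follicle marker RNA, a summed 4303 CPM beside a control median of 9.67. Its values and those of Ctrl 4 and CM1 3, set apart in an earlier look at these data, were kept, and the values without them are given where they turn a direction.

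The question asked of each medium was whether it changed these transcripts relative to a control bandage. The libraries are of whole wounds, in which fewer cells of a type and less RNA per cell cannot be told apart. No member passed the threshold of an adjusted p under 0.05 in any comparison with Ctrl, and no gene of the 18978 did (0%), by the edgeR quasi-likelihood test with Benjamini-Hochberg adjustment over all genes. The members nevertheless lay mostly above control, without passing the test: 9 of 10 had a log2 fold change above 0 in CM0, 10 in CM1 and 8 in CMA, and 10 in CMC, beside 47.4%, 48.7%, 46.7% and 48.4% of all genes. Their median log2 fold change was 0.23 in CM0, 0.33 in CM1 and 0.14 in CMA, and 0.24 in CMC, and the median of all genes was -0.01 in each. At an unadjusted p under 0.05 there was 1 member in CM0 (4.92% of all genes, 2.13% on the higher side), 2 in CM1 (7.04% and 3.37%), 1 in CMA (6.61% and 3.95%) and 3 in CMC (8.55% and 3.77%), all on the higher side. For the mean of the 4 media 10 members were above 0 (47.1% of all genes), the median was 0.27, and 3 members had an unadjusted p under 0.05 (9.42% of all genes, 4.22% on the higher side). DESeq2 and limma with voom and sample quality weights also called 0 members in every comparison, while DESeq2 called 1 gene of all in CM0, 1 in CM1 and 0 in CMA, and 4 in CMC. The members vary together, as described below, so their number on one side is not a count of independent results. Marker RNA of other cells lay above control beside them: the 4 neutrophil markers summed to a mean of 211 CPM in CM0, 383 in CM1 and 263 in CMA, and 200 in CMC, against 122 CPM in Ctrl, and the 6 keratinocyte markers to 11821, 10647, 13050 and 8739 CPM in the same media, against 7854 CPM in Ctrl. Skeletal muscle markers lay below control, at means of 3962, 2496, 2566 and 3191 CPM in the same media against 4692 CPM in Ctrl. Hair follicle markers were lower in mean, at 107, 24.8, 207 and 21.8 CPM against 803 CPM in Ctrl. Their medians were higher, at 23.6, 26.7, 105 and 11.7 CPM against 9.67 CPM in Ctrl, where Ctrl 3 alone held 4303 CPM. No tested gene of these lists passed the threshold, and the part of these cells in the members' differences was not tested.

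Leaving out 1 library moved these figures. The CM1 median was 0.07 without CM1 4, and the 2 members with an unadjusted p under 0.05 there became 0. In CMA the median was 0.002 and 5 of 10 members lay above control without CMA 4. Without Ctrl 6, in contrast, 5 members had an unadjusted p under 0.05 in CM0, 5 in CM1 and 2 in CMA, and 5 in CMC. Without Ctrl 3, Ctrl 4 and CM1 3 together, the number above 0 in CMA was 5 and the numbers with an unadjusted p under 0.05 were 0, 1, 0 and 0. The shares of all genes in these fits were not taken, so the counts have no background beside them. In no case did a member pass the adjusted threshold.

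**Figure D2:**
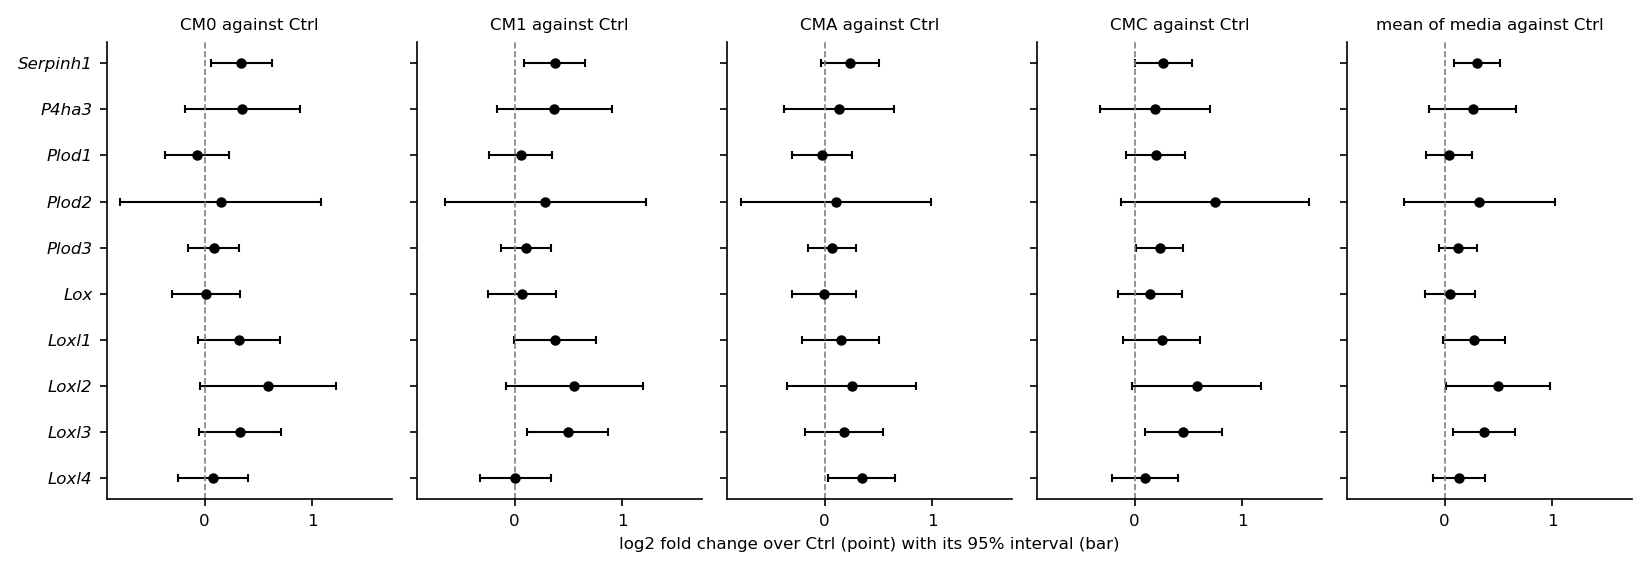
Log2 fold change of each member over Ctrl (point) with its 95% interval (bar) for each medium and for the equal-weight mean of the media, from the edgeR fit; the dashed line is 0. Points lie mostly right of 0, and the intervals that leave 0 out, such as that of Serpinh1 for the mean of media with an estimate of 0.30, did not survive adjustment over all genes.

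Serpinh1, the collagen chaperone, was 966, 1045, 1016 and 1037 CPM in CM0 wounds, and 977, 978, 844 and 1358 CPM in CM1 wounds. It was 1116, 838, 1114, 953 and 692 CPM in CMA wounds and 945, 1031, 866, 957 and 1032 CPM in CMC wounds. The 6 control wounds ran from 659 through a median of 798 to 1030 CPM. All CM0, CM1 and CMC wounds lay above the control median, but the highest control, Ctrl 6, stood among them, so no medium was free of overlap with Ctrl. The means were 1016 ± 35.5 CPM in CM0 and 802 ± 134 CPM in Ctrl, a log2 fold change of 0.34 ± 0.14 (SE) with an adjusted p of 0.946 by edgeR. For the mean of the media, 991 against 802 CPM, the log2 fold change was 0.30, with a 95% interval of 0.09 to 0.52, an unadjusted p of 0.00725 and an adjusted p of 0.437 by edgeR. That was the smallest p of any member in that comparison, and 17 of 18 medium-treated wounds were above the control median, the exception being CMA 5.

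P4ha3, one of the proline-hydroxylating subunits that make the helix stable at body temperature, was 26.5, 19.7, 28.3 and 27.8 CPM in CM0 wounds and 19, 21.4, 22.4 and 41.1 CPM in CM1 wounds. It was 24, 15.1, 24.2, 32.7 and 14.2 CPM in CMA wounds and 25.6, 29.0, 15.7, 23.1 and 20.9 CPM in CMC wounds. The controls ran from 13.8 through 18.6 to 32.4 CPM. CM1 4 was the highest of all wounds, followed by CMA 4 and Ctrl 6. The log2 fold change for the mean of the media was 0.26, with a 95% interval of -0.14 to 0.66 and an adjusted p of 0.672 by edgeR, and that for CM1 was 0.37, or 0.06 without CM1 4.

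Among the lysyl hydroxylases Plod2 spread most. It was 57.7, 22.8, 31.5 and 26.2 CPM in CM0 wounds, 30.4, 25.2, 35.3 and 61.3 CPM in CM1 wounds, and 36.4, 20.2, 26.8, 69.6 and 15.4 CPM in CMA wounds. In CMC wounds it was 81.9, 70.6, 26.9, 50.6 and 32.0 CPM, and the controls ran from 14.7 through 23.3 to 67.3 CPM. Every CMC wound was above the control median, yet Ctrl 1 stood with the 3 highest CMC wounds. The CMC mean of 52.4 ± 23.8 CPM against 31.0 ± 19.3 CPM in Ctrl gave a log2 fold change of 0.75 ± 0.42 (SE), the largest estimate of any member in any comparison with Ctrl, with a 95% interval of -0.12 to 1.62 and an adjusted p of 0.639 by edgeR. Its estimates in CM0, CM1 and CMA were 0.15, 0.29 and 0.11. That in CMA was -0.11 and that in CM0 -0.06 without Ctrl 3, Ctrl 4 and CM1 3 together, and leaving out CM0 1, CM1 4 or CMA 4 alone also turned the estimate of its own group below 0, as leaving out Ctrl 2 did for CMA (-0.03).

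Plod1, which hydroxylates lysines in the helix, was 157, 123, 167 and 153 CPM in CM0 wounds, 150, 181, 146 and 177 CPM in CM1 wounds and 162, 127, 123, 197 and 166 CPM in CMA wounds. The CMC wounds had 190, 201, 166, 175 and 170 CPM and the controls ran from 112 through 155 to 213 CPM. All 5 CMC values were above the control median, while Ctrl 6 was the highest of all wounds. The log2 fold change was -0.07 in CM0, 0.06 in CM1 and -0.02 in CMA, and 0.20 in CMC, and for the mean of the media 0.04, or -0.08 without Ctrl 3, Ctrl 4 and CM1 3 together. Plod3 was 75.8, 63.0, 69.6 and 76.1 CPM in CM0 wounds, 68.8, 73.8, 60.7 and 85.5 CPM in CM1 wounds, and 68.9, 64.3, 62.9, 81.3 and 73.8 CPM in CMA wounds. The CMC wounds had 88.0, 89.2, 66.4, 77.0 and 73.2 CPM, against 56.6 through 66.2 to 85.4 CPM in controls. Its 5 CMC wounds were all above the control median, and the log2 fold change of 0.23 ± 0.11 (SE) in CMC had an unadjusted p of 0.0404 and an adjusted p of 0.577 by edgeR. The ratio of telopeptide to helical hydroxylase, log2 of Plod2 over Plod1, was higher by 0.59 in CMC wounds than in Ctrl (exact permutation test, two-sided, p = 0.177, adjusted over the 4 media 0.610), by 0.30 in CM0, 0.32 in CM1 and 0.12 in CMA, and none passed the threshold.

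Lox was 548, 403, 679 and 543 CPM in CM0 wounds, 552, 574, 511 and 628 CPM in CM1 wounds and 660, 486, 419, 626 and 489 CPM in CMA wounds. The CMC wounds had 565, 634, 695, 499 and 586 CPM and the controls ran from 437 through 509 to 748 CPM. Its groups overlapped almost fully: the log2 fold changes were 0.01 in CM0, 0.07 in CM1 and -0.01 in CMA, and 0.14 in CMC. For the mean of the media, 560 against 539 CPM, it was 0.05, with a 95% interval of -0.18 to 0.29, so that a change beyond about 1.22-fold upward or 0.883-fold downward lies outside that interval.

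Loxl1 was 352, 217, 320 and 300.0 CPM in CM0 wounds, 267, 289, 244 and 435 CPM in CM1 wounds and 270, 202, 260, 372 and 219 CPM in CMA wounds. The CMC wounds had 339, 333, 248, 259 and 242 CPM, and the controls ran from 190 through 228 to 319 CPM. All CM1 and CMC wounds were above the control median and Ctrl 6 stood among them. With all media averaged, 289 against 238 CPM, its log2 fold change was 0.27, with a 95% interval of -0.01 to 0.56 and an adjusted p of 0.546 by edgeR. Loxl2, which acts on type IV collagen of basement membranes as well as on fibrillar collagen, was 458, 303, 242 and 423 CPM in CM0 wounds and 362, 196, 262 and 577 CPM in CM1 wounds. In CMA wounds it was 342, 204, 301, 417 and 148 CPM and in CMC wounds 450, 385, 258, 422 and 255 CPM, against 165 through 220 to 353 CPM in controls. The medium-treated wounds reached both above and below the control range, with CM1 4 highest and CMA 5 lowest of all. Its log2 fold changes of 0.59 in CM0, 0.56 in CM1 and 0.58 in CMC were close to one another and that in CMA was 0.25. For the mean of the media, 335 against 237 CPM, the value was 0.49 ± 0.23 (SE) with an adjusted p of 0.519 by edgeR, and the CM1 value was 0.20 without CM1 4.

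Loxl3 was 56.4, 35.3, 44.7 and 48.0 CPM in CM0 wounds, 47.7, 47.1, 47.9 and 63.9 CPM in CM1 wounds and 53.8, 43.5, 36.5, 44.6 and 30.0 CPM in CMA wounds. The CMC wounds had 57.0, 55.1, 43.4, 58.8 and 36.6 CPM and the controls ran from 27.9 through 35.6 to 49.8 CPM. All CM1 and CMC wounds exceeded the control median, with Ctrl 6 inside the range of each. The log2 fold change was 0.49 ± 0.18 (SE) in CM1 and 0.45 ± 0.17 (SE) in CMC, with adjusted p-values of 0.695 and 0.547 by edgeR. The media together, 47.4 against 36.6 CPM, gave 0.36, with a 95% interval of 0.08 to 0.65, an unadjusted p of 0.0148 and an adjusted p of 0.455 by edgeR. Loxl4 showed another order of groups. Its CMA wounds had 27.0, 28.7, 22.3, 24.2 and 22.9 CPM, against 14.5 through 20.4 to 23.9 CPM in controls. All 5 CMA wounds were above the control median, with a log2 fold change of 0.34 ± 0.15 (SE), an unadjusted p of 0.0301 and an adjusted p of 0.733 by edgeR. In CM0 wounds it was 15.5, 24.5, 24.5 and 18.8 CPM, in CM1 wounds 17.2, 26.3, 19 and 16.5 CPM and in CMC wounds 17.3, 26.0, 18, 19.8 and 23.8 CPM, with log2 fold changes over Ctrl of 0.08, 0.01 and 0.09.

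**Figure D3:**
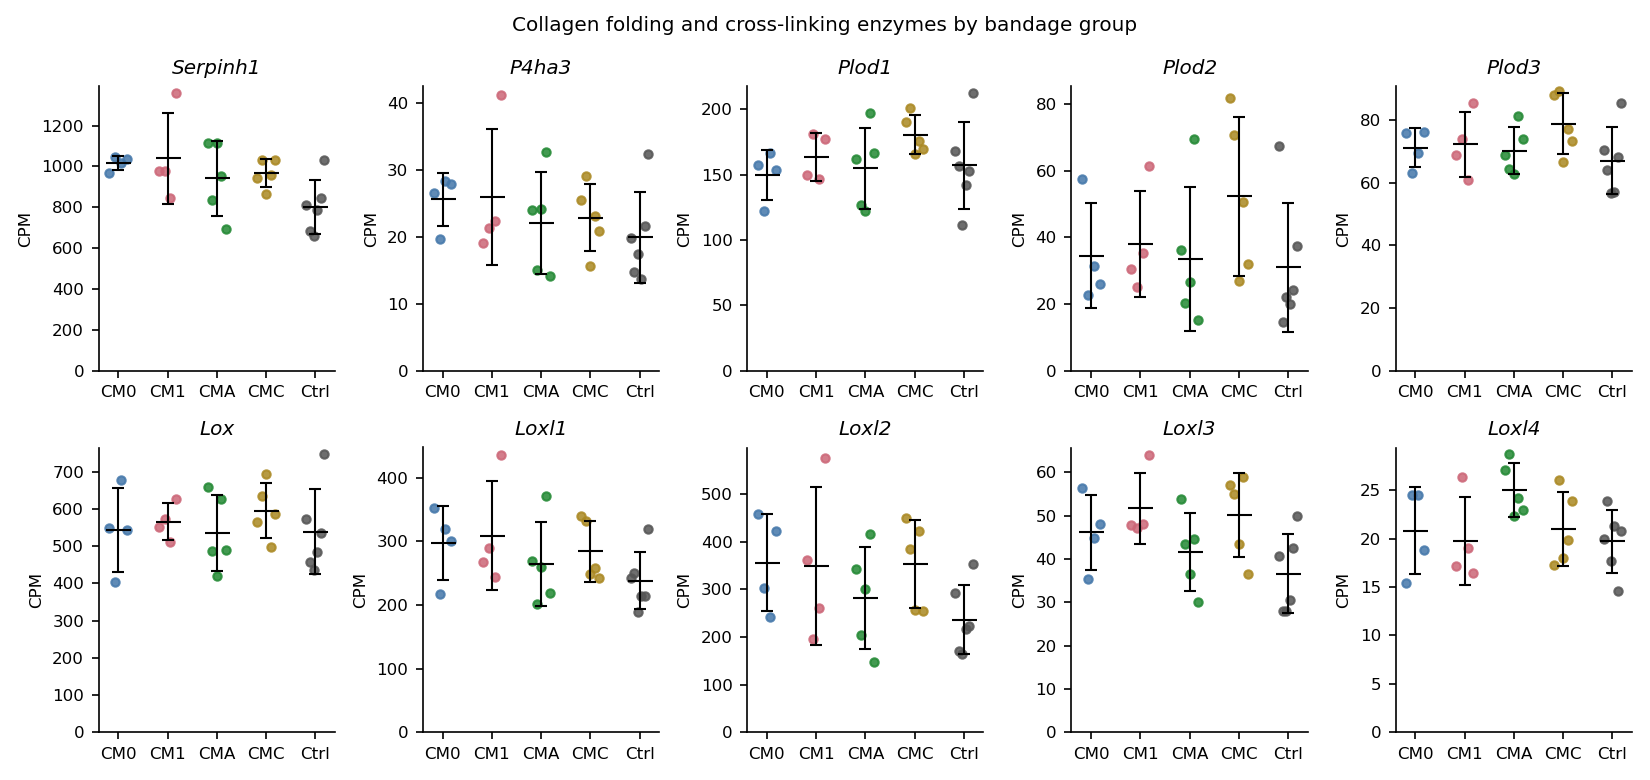
CPM of each member in every wound by group, with the mean (long line) and SD (bar); each panel has its own axis from 0. The groups of every member overlap, Serpinh1 has its lowest mean in Ctrl at 802 CPM, Loxl4 its highest in CMA at 25 CPM, and CM1 4 stands above its group in most panels.

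Polarised media were also set against the medium of M0 macrophages and against each other. No member passed the threshold in any of the 6 pairs, nor did any gene (0%), by edgeR. Members with an unadjusted p under 0.05 numbered 0 in each pair, beside 2.22% of all genes in CM1 against CM0, 3.14% in CMA against CM0, 3.72% in CMC against CM0, 4% in CM1 against CMA, 2.71% in CM1 against CMC and 6.16% in CMA against CMC. The smallest p belonged to Loxl4 in CM1 against CMA, 19.7 ± 4.50 against 25 ± 2.75 CPM, with a log2 fold change of -0.34, a 95% interval of -0.68 to 0.01 and an adjusted p of 0.995 by edgeR. Loxl4 was also 0.27 higher on the log2 scale in CMA than in CM0 and 0.25 higher in CMA than in CMC, with every CMA wound above the median of the other group, and neither passed the test. Plod1 in CMC against CM0, 180 ± 14.8 against 150 ± 19.1 CPM, had a log2 fold change of 0.27 (95% interval -0.04 to 0.57, adjusted p 0.998 by edgeR). The widest interval was that of Plod2 in CMA against CMC, a log2 fold change of -0.64 between -1.56 and 0.28. When all 5 groups were tested together for any difference, the smallest unadjusted p-values were 0.0649 for Loxl3 and 0.0782 for Serpinh1, both with an adjusted p of 0.929 by edgeR, and 0 members had an unadjusted p under 0.05 beside 4.65% of all genes.

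The other enzymes and chaperones that handle procollagen, 23 genes, were all tested and 0 passed the threshold in either direction. For the mean of the media 22 of 23 had a log2 fold change above 0, with a median of 0.16. P3h4, a partner of the complex that guides helical lysine hydroxylation, was at 52.5 ± 6.04 CPM in CM0, 56.0 ± 10.0 in CM1 and 55.5 ± 14.1 in CMA, and 51.7 ± 7.58 in CMC, against 42.0 ± 5.58 CPM in Ctrl. Its log2 fold change for the mean of the media was 0.36, with an unadjusted p of 0.00553 and an adjusted p of 0.430 by edgeR. Fkbp14, a proline isomerase of the endoplasmic reticulum, was at 38.4 ± 2.82 CPM in CM0 and 40.7 ± 8.23 in CM1, against 31.9 ± 3.86 CPM in Ctrl, with log2 fold changes of 0.27 and 0.35. P3h2, a prolyl 3-hydroxylase, had a log2 fold change of 0.27 in CMA. Tll1, a protease that trims procollagen, was at 21.3 ± 4.24 CPM in CMC against 16.1 ± 2.2 CPM in Ctrl, a log2 fold change of 0.40 with an adjusted p of 0.547 by edgeR.

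In 5 related lists 0 genes passed the threshold against Ctrl. Of 7 fibrillar collagen genes 6 were above 0 for the mean of the media, with a median of 0.20, and Col5a2 had the smallest p at a log2 fold change of 0.20. Of 11 elastic fibre genes 8 were above 0, with a median of 0.08 and the smallest p in Mfap5, a microfibril component, at 0.53 (adjusted p 0.478 by edgeR). Of 8 genes of TGF-beta signalling, which is known to induce lysyl oxidases, 5 were above 0 with a median of 0.08. There Ccn2, a matricellular target of the pathway, had the smallest p at 0.48, and in CMC it was 58.2 ± 17.6 against 25.2 ± 10.00 CPM, a log2 fold change of 1.20 with an adjusted p of 0.400 by edgeR. Of 9 hypoxia targets 5 were above 0 with a median of 0.06, and Car9 had the smallest p at -0.29. All 12 general chaperones of the endoplasmic reticulum and the heat shock response were above 0, but by a median of 0.08, with Dnajb1 at 0.20. Over all genes that median was -0.01.

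The enzyme level per collagen transcript was taken as log2 of member CPM over Col1a1 CPM, which does not depend on library scaling. Of 40 ratios, 10 members in 4 media, 31 were higher than in Ctrl and none passed the threshold after adjustment over the 40 by exact permutation tests, whose smallest possible p is 0.00476 for 4 wounds against 6 and 0.00216 for 5 against 6. The lowest adjusted p was 0.303. Ratios of all other genes to Col1a1 or Col3a1 were not taken, so the counts of ratios here have no background beside them. The ratios share their denominator and the Ctrl wounds, so their number on one side is not a count of independent results. Serpinh1 per Col1a1 was higher by 0.33 in CM0 (exact p = 0.0286), 0.30 in CM1 (exact p = 0.0190) and 0.24 in CMC (exact p = 0.0433), and by 0.08 in CMA (exact p = 0.576). Loxl3 was higher by 0.45 in CM1 (exact p = 0.0381) and Loxl2 by 0.57 in CM0 (exact p = 0.0476), and these 5 were the only ratios with an unadjusted p under 0.05. With Col3a1 in place of Col1a1, 23 of the 40 ratios were higher than in Ctrl, 10 changed sign and 1 had an unadjusted p under 0.05, that of Plod1 in CM0 at -0.25 (exact p = 0.0190, adjusted 0.614). Serpinh1 per Col3a1 was higher by 0.16 in CM0, 0.12 in CM1 and 0.093 in CMA, and 0.048 in CMC. Lox per Col1a1 differed by -0.02 in CM0, 0.02 in CM1 and -0.15 in CMA, and 0.12 in CMC, or -0.075 in CMC per Col3a1.

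Across the 24 wounds 9 of the members ran together and Loxl4 did not. For the 36 pairs without Loxl4 Pearson's r of log2 CPM lay between 0.31 and 0.85 with a median of 0.69, and 32 had an adjusted permutation p under 0.05 over the 45 pairs. On deviations from group means the median of the same 36 was 0.64. The 9 pairs with Loxl4 lay between -0.31 and 0.04, and 0 passed. Pairs of other genes were not counted in the same way, so these figures have no background beside them. Plod1 and Plod3 had the closest tie within groups: r was 0.85 and Spearman's rho 0.88, each with a permutation p of 1e-05, the smallest that 100000 resamples can give, and adjusted values of 7.5e-05 and 0.00018. The r was 0.82 without CM0 2 and Ctrl 3, the wounds farthest from the median of Plod1, and 0.85 on deviations from group means. P4ha3 and Loxl1 had r of 0.85 and rho of 0.83 (permutation p of 1e-05 for both, adjusted 7.5e-05 and 0.00018), and r was 0.80 without CM1 4 and Ctrl 4 and 0.83 within groups. Loxl2 and Loxl3 had r of 0.81 and rho of 0.80 (permutation p of 1e-05 and 2e-05, adjusted 7.5e-05 and 0.00018), and r was 0.75 without CM1 4 and CMA 5 and 0.78 within groups. Plod2 and Loxl2 had r of 0.80 and rho of 0.78 (permutation p of 1e-05 and 2e-05, adjusted 7.5e-05 and 0.00018), and r was 0.79 without CMC 1 and CMC 2 and 0.81 within groups. The weakest pair without Loxl4 was Serpinh1 with Plod1, with r of 0.31 and rho of 0.24 (permutation p of 0.134 and 0.265, adjusted 0.168 and 0.322), r of 0.09 without CM1 4 and Ctrl 3 and 0.35 within groups.

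**Figure D4:**
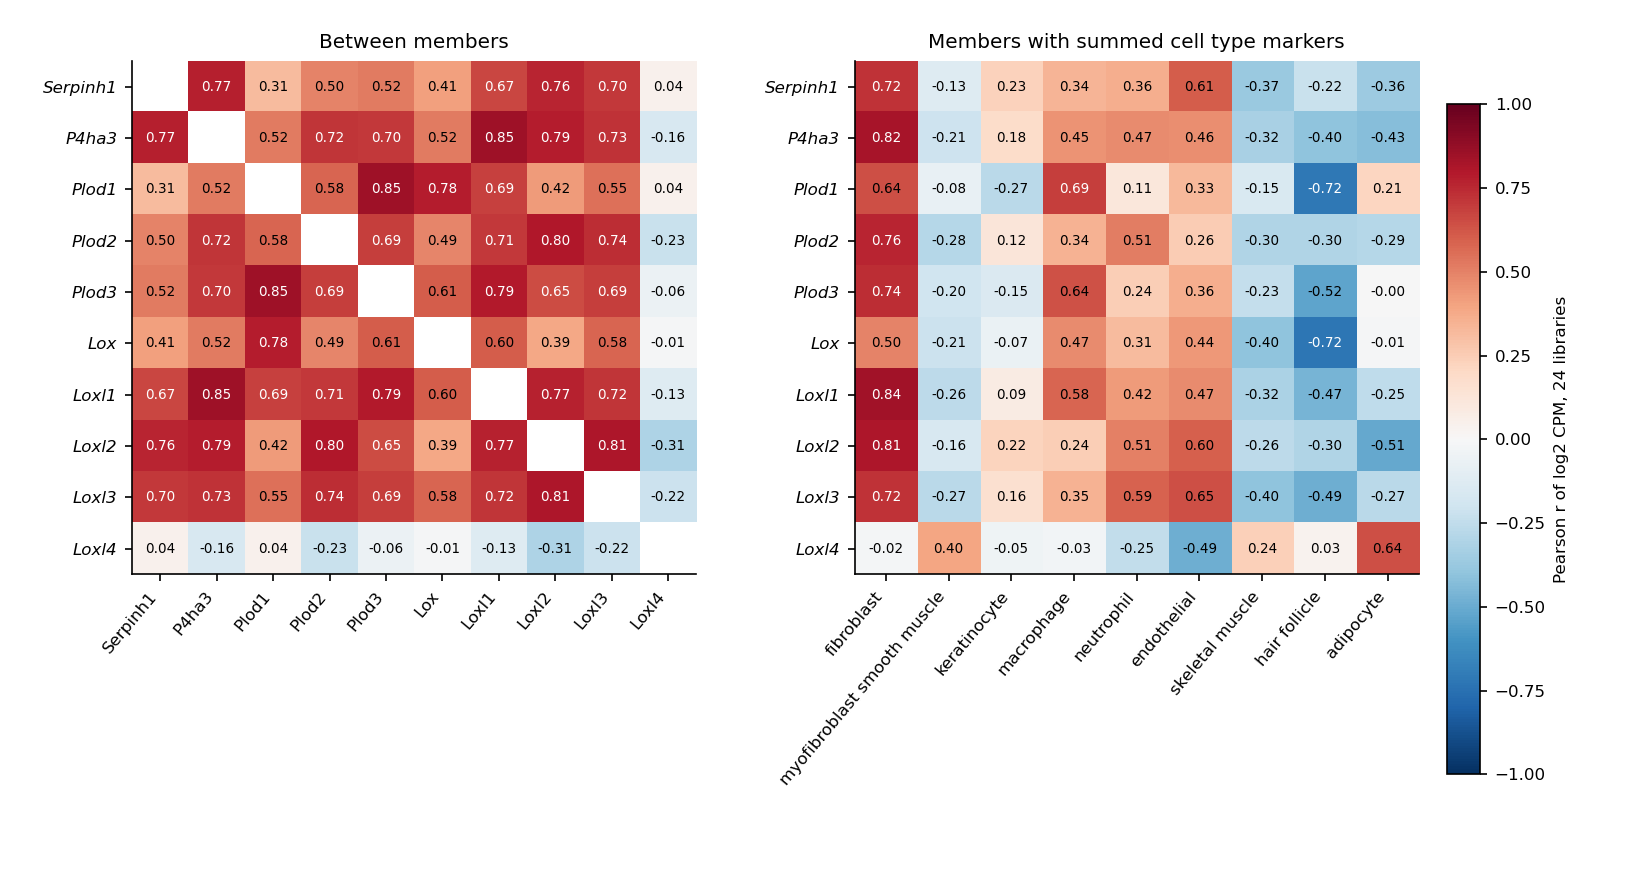
Pearson's r of log2 CPM over 24 libraries between members (left) and between each member and the summed CPM of cell type markers (right), red for positive and blue for negative. Loxl4 is the pale row of the left panel, with r between -0.31 and 0.04, and the fibroblast column of the right panel is red for every other member, reaching 0.84 for Loxl1.

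The collagen chains themselves gave different pictures. With Col1a1 0 of 10 members passed the threshold over 10 relations. Serpinh1 had r of 0.55 and rho of 0.35 (permutation p of 0.00535 and 0.0958, adjusted 0.0535 and 0.144), r of 0.39 without CM1 3 and CM1 4 and 0.63 within groups. Another 5 members had the same adjusted p of 0.0535 for r, and on deviations from group means 6 passed. With Col3a1, the chain of type III collagen that prevails in young granulation tissue, 9 of 10 passed. Loxl1 had r of 0.88 and rho of 0.84 with Col3a1 (permutation p of 1e-05 for both, adjusted 4e-05 and 6e-05), r of 0.82 without CM1 4 and Ctrl 3 and 0.87 within groups, and 0.0527% of all genes had an r as high. Plod1 had the lowest r of the 9, 0.60 with rho of 0.65 (permutation p of 0.00221 and 0.00085, adjusted 0.00246 and 0.00106), r of 0.56 without CM1 4 and Ctrl 3 and 0.61 within groups, and 4.98% of all genes reached it. Loxl4 had r of -0.14 and rho of -0.10 with Col3a1 (permutation p of 0.525 and 0.640, the same after adjustment), r of -0.07 without CM1 4 and Ctrl 3 and -0.19 within groups.

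Marker RNA of fibroblasts, the cells that make most of these enzymes, moved with the members: all 7 listed markers were tested and none was at 0 in any library, and their summed level ran from 2465 to 3117 CPM in CM0, 2533 to 3835 in CM1 and 2108 to 3217 in CMA, and 2277 to 3685 in CMC, against 1882 to 3275 CPM in Ctrl. Their median log2 fold change over Ctrl was 0.25 in CM0, 0.28 in CM1 and 0.03 in CMA, and 0.23 in CMC, with 0 genes past the threshold. Of 90 relations between members and 9 marker lists, 21 had an adjusted permutation p under 0.05, 8 of them with fibroblast markers. The share of all genes related as strongly to these lists was not taken, so the counts have no background beside them. Loxl1 had r of 0.84 and rho of 0.77 with fibroblast markers (permutation p of 1e-05 and 7e-05, adjusted 0.00045 and 0.00157), r of 0.77 without CM1 4 and Ctrl 3 and 0.82 within groups. P4ha3 had r of 0.82 and rho of 0.82 (permutation p of 2e-05 for both, adjusted 0.00045 and 0.0009), r of 0.80 without the same wounds and 0.83 within groups. Lox did not pass with fibroblast markers (r 0.50, rho 0.50, permutation p of 0.0141 and 0.0131, adjusted 0.0551 and 0.0630, r 0.40 without the same wounds and 0.46 within groups). Loxl4 had r of -0.02. The part of fibroblast content in the differences between media and Ctrl was not tested.

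Relations to the other cell type lists passed for 3 members or fewer in each. Macrophage markers, all 6 tested and none at 0, ran from 2036 to 2890 CPM in CM0, 2326 to 3283 in CM1 and 1551 to 2842 in CMA, and 2481 to 3910 in CMC, against 1914 to 3397 CPM in Ctrl. Plod1 had r of 0.69 and rho of 0.70 with them (permutation p of 0.00018 and 0.00029, adjusted 0.00162 and 0.00386), r of 0.61 without CMA 2 and CMC 2 and 0.65 within groups, and Plod3 and Loxl1 also passed. Hair follicle keratins, 4 of 5 tested and 3 at 0 in some library, ran from 2.49 to 380 CPM in CM0, 8.30 to 37.5 in CM1 and 2.95 to 738 in CMA, and 0.957 to 75.0 in CMC, against 0.590 to 4303 CPM in Ctrl. Lox ran against them, with r of -0.72 and rho of -0.67 (permutation p of 6e-05 and 0.00059, adjusted 0.000771 and 0.0059), r of -0.64 without CMA 3 and Ctrl 3 and -0.72 within groups. Plod1 also had an r of -0.72 with hair follicle markers, with rho of -0.55 (permutation p of 0.00012 and 0.00652, adjusted 0.0012 and 0.0386), r of -0.56 without those wounds and -0.72 within groups. Plod3 passed at r of -0.52 and rho of -0.42 (permutation p of 0.00882 and 0.0415, adjusted 0.0418 and 0.125), with r of -0.37 without those wounds and -0.52 within groups. Endothelial markers, all 4 tested and none at 0, ran from 287 to 382 CPM in CM0, 304 to 447 in CM1 and 232 to 325 in CMA, and 245 to 341 in CMC, against 199 to 403 CPM in Ctrl, and Loxl3 had r of 0.65 and rho of 0.66 with them (permutation p of 0.00051 and 0.00053, adjusted 0.00417 and 0.0059), r of 0.49 without CM1 4 and Ctrl 3 and 0.66 within groups. Serpinh1 with r of 0.61 and rho of 0.47 (permutation p of 0.00175 and 0.0207, adjusted 0.0105 and 0.0808) and Loxl2 with r of 0.60 and rho of 0.54 (permutation p of 0.00218 and 0.00687, adjusted 0.0123 and 0.0386) also passed for r, at 0.37 and 0.42 without the same wounds and 0.63 and 0.60 within groups.

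Neutrophil markers, all 4 tested and none at 0, ran from 25 to 445 CPM in CM0, 156 to 590 in CM1 and 50.1 to 472 in CMA, and 72.9 to 360 in CMC, against 33.9 to 279 CPM in Ctrl. Loxl3 had r of 0.59 and rho of 0.46 with them (permutation p of 0.00255 and 0.0240, adjusted 0.0130 and 0.0898), r of 0.51 without CM0 2 and Ctrl 4 and 0.52 within groups. Plod2 had r of 0.51 and rho of 0.48 (permutation p of 0.0104 and 0.0178, adjusted 0.0467 and 0.0727), r of 0.46 without the same wounds and 0.54 within groups. The lists of keratinocyte markers, of myofibroblast and smooth muscle markers, and of skeletal muscle markers had 0 relations past the threshold. Loxl4 had r of 0.40 with myofibroblast and smooth muscle markers (adjusted permutation p of 0.128) and 0.64 within groups. With skeletal muscle markers its r was 0.24 (adjusted permutation p of 0.364) and 0.51 within groups.

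Loxl4 ran with another marker list than the rest. Its r with adipocyte markers was 0.64 and its rho 0.58 (permutation p of 0.0007 and 0.00325, adjusted 0.00485 and 0.0220), and r was 0.57 without CM1 2 and CM1 4 and 0.74 within groups. All 4 adipocyte markers were tested and none was at 0. They ran from 509 to 855 CPM in CM0, 332 to 1365 in CM1, 490 to 1137 in CMA and 731 to 1211 in CMC. In Ctrl they ran from 478 to 1179 CPM. Their mean was 790 CPM in CMA and 714 CPM in Ctrl, and it was highest in CMC at 920 CPM. The part of fat content in the Loxl4 values of CMA wounds was not tested. Loxl2 had r of -0.51 and rho of -0.42 with adipocyte markers (permutation p of 0.0114 and 0.0423, adjusted 0.0488 and 0.125). Its r was -0.33 without CM1 2 and CM1 4 and -0.69 within groups.

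**Figure D5:**
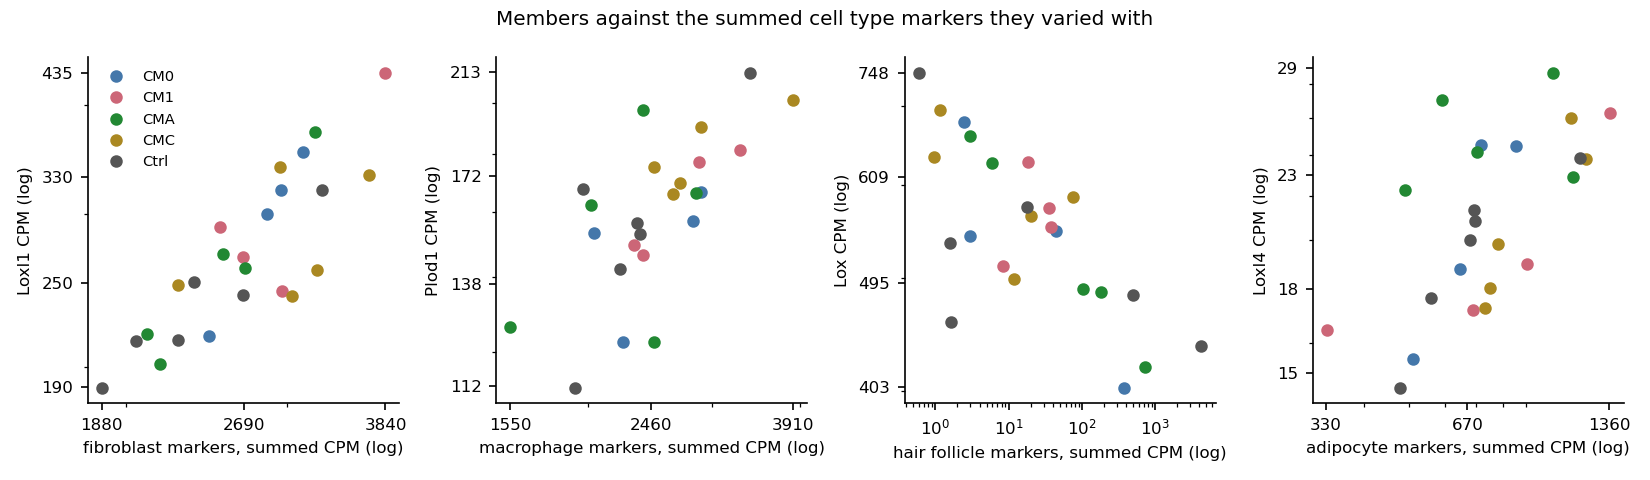
A member's CPM against the summed CPM of a marker list in each of 24 wounds, both axes logarithmic, for Loxl1 and fibroblast, Plod1 and macrophage, Lox and hair follicle, and Loxl4 and adipocyte markers, coloured by group. The points rise for Loxl1 (r 0.84), Plod1 (r 0.69) and Loxl4 (r 0.64) and fall for Lox (r -0.72), with groups mixed along each trend.

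Among 10297 protein-coding genes of at least 10 CPM the nearest in pattern to each member were found by Pearson's r over the 24 wounds, given here as a description. Serpinh1 was nearest to Fkbp14 (0.89), the calcium-binding chaperone gene Rcn3 (0.88) and the type V collagen chain Col5a2 (0.88). P4ha3 was nearest to Tmem167 (0.92), the plasminogen activator gene Plat (0.91) and Fndc1 (0.91). Plod2 was nearest to P4ha1 (0.93), another collagen prolyl hydroxylase subunit, then to Tnfaip6 (0.93), which modifies hyaluronan, and the protease inhibitor gene Timp1 (0.91). Plod1 was nearest to the endocytic receptor gene Lrp1 (0.90), Sh3glb1 (0.89) and Cd47 (0.89), and Plod3 to the membrane protease gene Adam9 (0.91), Akap13 (0.89) and Trpc4ap (0.89). For Lox the first were Cmtm3 (0.80), Dap (0.79) and the member Plod1 (0.78). Loxl1 was nearest to Heg1 (0.93), to Efemp2 (0.92), an elastic fibre protein, and to Fstl1 (0.91). Loxl2 was nearest to Dsel (0.95), Glipr2 (0.94) and Dpysl3 (0.93), and Loxl3 to Cul7 (0.87), Abhd2 (0.87) and the fibronectin gene Fn1 (0.87). Genes near Loxl4 in pattern included B3galt2 (0.74) and the connective tissue mast cell protease gene Mcpt4 (0.72).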

How the data were processed

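RNA of 24 wound samples was sequenced. The authors deposited 1 table of raw gene counts per library, with no normalization. Per the labels' protocols, ribosomal RNA was removed with Ribo-Zero and libraries were made with the NEBNext Ultra kit. That kit leaves the strand unmarked. The submitters' processing notes name bcl2fastq 2.17, FastQC, cutadapt, STAR, featureCounts, DESeq2 and GRCm38. Neither the annotation release nor the counting options is given in the sources used here.

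Symbols, positions and exon lengths came from GENCODE M21. Low genes were removed with filterByExpr of edgeR (defaults: count 10, total 15), libraries were scaled by TMM, and 1 quasi-likelihood model with a term per group was fitted to all libraries. Adjusted p-values are Benjamini-Hochberg over 18978 genes, compared with 0.05. CPM follow TMM scaling, ± is an SD over libraries unless called SE, and log2 CPM used a prior count of 0.5. Correlations were tested with 100000 permutations, ratios with exact permutation tests. Replicate numbers follow accession order and only name samples. The edgeR test was tried on simulated counts for CM0 against Ctrl only, and the permutation tests were not tried on simulated data. Counts per library limit precision: the lowest single value was 102 counts, for P4ha3.

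Members and lists were chosen with earlier results of these data known. Named genes are all members, the 3 nearest genes of each, the 2 smallest p in each medium among procollagen enzymes, and the smallest p for the mean of the media in each other list; the CMC value of Ccn2 was added after it was seen. One of the nearest genes is not reported here. Alternatives were DESeq2, limma with voom, other scaling, no filter, left-out libraries, Col3a1 for Col1a1 and a prior count of 2. R 4.3.3, edgeR 4.0.16, limma 3.58.1, DESeq2 1.42.0, Python 3.11.15, numpy 2.4.6, scipy 1.17.1 and pandas 2.3.3 were used.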

Additional observations from a re-analysis of the deposited data

Results flagged for a closer look

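Of 50 groups of values, 10 members in 5 groups, 1 held a sample far from the others. Loxl3 in CM1 wounds was 63.9 CPM in CM1 4 and between 47.1 and 47.9 CPM in the other 3, so that the gap to the nearest took 0.943 of the whole range, beyond Dixon's 95% critical value for 4 samples. Chance alone marks about 1 in 20 such groups. Without CM1 4 the log2 fold change of Loxl3 in CM1 over Ctrl was 0.38, against 0.49 with it.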

How the results depend on the processing

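In every comparison the number of members past the threshold stayed 0 under other scaling, no filter, DESeq2, limma with voom, and with any library or Ctrl 3, Ctrl 4 and CM1 3 left out, and the median log2 fold change of the members stayed above 0 in each medium. No paired analysis was possible because the labels carry no replicate numbers. Several estimates changed sign, and the cause was not tested. With voom, Plod1 in CMA was 0.0062 and Lox in CMA 0.064. Without Ctrl 3, Ctrl 4 and CM1 3 together, CM0 values were -0.061 for Plod2, -0.022 for Plod3 and -0.095 for Lox, the CM1 value of Plod1 was -0.026, CMA values were -0.020 for P4ha3, -0.11 for Plod2 and -0.040 for Plod3, and for the mean of media Plod1 was -0.081 and Lox -0.038. With Col3a1 in place of Col1a1 as denominator, log2 ratios were -0.0071 for P4ha3 in CMC, -0.17 for Plod1 in CM1, -0.012 for Plod1 in CMC, -0.096 for Plod3 in CM0, -0.14 for Plod3 in CM1, -0.16 for Lox in CM1, -0.075 for Lox in CMC, 0.0029 for Loxl1 in CMA, -0.12 for Loxl4 in CM0 and -0.14 for Loxl4 in CMC. No member passed the threshold for a relation to Col1a1, while 9 did for Col3a1 and 6 for Col1a1 on deviations from group means. Leaving out 1 library at a time turned the sign of 14 log2 fold changes and 17 ratios. The fold changes ranged over the following values, for Lox -0.12 to 0.12 in CM0, -0.094 to 0.10 in CMA and -0.0032 to 0.16 for the mean of media, for Loxl1 -0.0055 to 0.24 in CMA and for Loxl4 -0.022 to 0.19 in CM0 and -0.18 to 0.086 in CM1. Others were, for P4ha3 -0.053 to 0.32 in CMA, for Plod1 -0.15 to 0.030 in CM0, -0.029 to 0.16 in CM1, -0.12 to 0.079 in CMA and -0.044 to 0.14 for the mean of media and for Plod2 -0.22 to 0.53 in CM0, -0.040 to 0.67 in CM1 and -0.34 to 0.49 in CMA. The ratios to Col1a1 ranged over the following values, for Lox -0.12 to 0.068 in CM0 and -0.073 to 0.15 in CM1, for Loxl1 -0.12 to 0.090 in CMA and for Loxl2 -0.080 to 0.21 in CMA. Their ranges were, for Loxl3 -0.019 to 0.11 in CMA, for Loxl4 -0.12 to 0.18 in CM0, -0.27 to 0.18 in CM1 and -0.087 to 0.14 in CMC and for P4ha3 -0.16 to 0.12 in CMA. Further ranges were, for Plod1 -0.14 to 0.00011 in CM0 and -0.091 to 0.15 in CM1, for Plod2 -0.079 to 0.51 in CM0 and -0.34 to 0.24 in CMA and for Plod3 -0.026 to 0.14 in CM1 and -0.16 to 0.015 in CMA. The last was, for Serpinh1 -0.035 to 0.13 in CMA. The ratio of Plod2 to Plod1 in CMA ranged over -0.10 to 0.38. The numbers of member pairs and of marker relations past the threshold, rechecked by other scaling and on deviations from group means, were alternatives chosen after seeing the data: 32 member pairs became 32 and 33, and 21 marker relations became 21 and 28. All counts on deviations from group means rest on permutations that make no allowance for the means removed. Their p-values are too small to that extent, so a higher count there is not a stronger result. Groups of 4 to 6 wounds and the spread between wounds limit what these comparisons can show.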
